A study of Mus musculus with 221 samples.

Results

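Nlrp4a, Nlrp4b, Nlrp4c, Nlrp4e, Nlrp4f, Nlrp9a, Nlrp9b, Nlrp9c and Nlrp14 were followed in single early 2-cell mouse embryos. These 9 genes were chosen by name, as members of the NLR gene family (the NLRP branch) known from oocytes, and all 9 of them stood among the 55291 genes of the count table. The embryos were made by in vitro fertilization. Superovulated females with C57BL/6N nuclear DNA and mitochondrial DNA of the Staudach (ST) line gave the oocytes, and the sires had eaten a high-fat diet (HFD, 84 embryos and a further 38 numbered 31 to 70) or a low-fat diet (LFD, 99 embryos). All embryos of both groups therefore shared a C57BL/6N nuclear genome and ST mitochondria, and only the father's diet differed by label. Per the study's methods, oocytes of several females were pooled on each fertilization date, frozen and thawed sperm of an HFD and an LFD male was used on that date, and other males served on the next. The labels name neither sire nor date, so differences between the diets cannot be told apart from differences between the few sires of each diet. Each library was made from 1 whole embryo by Smart-seq2, a full-length method that starts from poly(A) RNA and includes PCR amplification.

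NLR proteins combine a nucleotide-binding NACHT domain with leucine-rich repeats. Relatives such as Nlrp3 are immune sensors that assemble inflammasomes, protein platforms which activate caspase-1 and the cytokine interleukin-1 beta. In rodents a further set of NLRP genes has multiplied and is transcribed in the growing oocyte, and its transcripts and proteins are handed to the embryo with the egg. Nlrp5 (Mater) is the best known of these as part of the subcortical maternal complex, Nlrp14 is required for development past the first cleavages, and Nlrp9b is also known as a sensor of rotavirus RNA in gut epithelium. At the 2-cell stage the mouse embryo degrades maternal transcripts while its own genome is switched on, and Zscan4 genes belong to the transcripts made in that wave. Transcripts inherited from the egg and transcripts newly made by the embryo cannot be told apart in these libraries.

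In the coordinates of the count table (GRCm38), 8 of the 9 genes lay on chromosome 7. From the low to the high end these were Nlrp4c (start 6045161), Nlrp4b (10687789), Nlrp9b (19991465), Nlrp4e (23301192), Nlrp9c (26322473), Nlrp4a (26435113), Nlrp9a (26535023) and Nlrp14 (107166990). Nlrp9c, Nlrp4a and Nlrp9a formed a tight group, with gaps of 31413 and 58881 bases between them. Only Gm25947 was annotated in those gaps, and it had a count in 1 embryo. Nlrp9c was read from the minus strand and the other 7 genes of chromosome 7 from the plus strand. Nlrp4f lay apart on chromosome 13, from 65177111 to 65205977 on the minus strand.

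RefSeq promoter windows (GRCm38.p6, 250 bases before to 50 after each annotated start) were found for 8 of the 9 genes, with 2 starts for Nlrp4a and for Nlrp4b, which made 10 windows. The windows of Nlrp9a and Nlrp9c are shown because they were the most alike of all pairs aligned over more than 10 positions. In their alignment 216 positions were identical (95.2%), 6 were mismatched and 5 were gaps. Capitals mark CCAAT and its reverse complement.
Nlrp9a, chr7:26534773-26535072, plus strand: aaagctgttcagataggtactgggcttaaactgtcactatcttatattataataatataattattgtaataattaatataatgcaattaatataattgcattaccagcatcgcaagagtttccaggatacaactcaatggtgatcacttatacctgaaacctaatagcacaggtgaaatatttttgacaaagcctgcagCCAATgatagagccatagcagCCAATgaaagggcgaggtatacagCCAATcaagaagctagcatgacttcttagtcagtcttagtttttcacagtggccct
Nlrp9c, chr7:26403651-26403950, minus strand: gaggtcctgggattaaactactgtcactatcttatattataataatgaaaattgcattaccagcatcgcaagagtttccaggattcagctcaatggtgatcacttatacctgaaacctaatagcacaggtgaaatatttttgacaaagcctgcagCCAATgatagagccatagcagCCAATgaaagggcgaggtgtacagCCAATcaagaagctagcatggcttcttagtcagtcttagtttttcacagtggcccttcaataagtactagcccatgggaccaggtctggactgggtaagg
Both windows held 3 CCAAT motifs with the same spacing, beginning at -51, -30 and -6 from the annotated start (position 0) in Nlrp9a and at -95, -74 and -50 in Nlrp9c.

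The Nlrp4 genes shared a second kind of start region, shown for the 4 genes in which it was found. Between the windows of Nlrp4a (second start), Nlrp4b (first start) and Nlrp4c, identity ran from 74.1% to 75.3% over 282 to 304 aligned positions. Capitals mark the 14 bases common to Nlrp4a, Nlrp4b and Nlrp4c and the 16 bases common to Nlrp4a, Nlrp4b and Nlrp4f. Each stretch was picked as the longest common to its 3 genes. Among all 32851 windows of the RefSeq table, searched on either strand, each occurred only in windows of its 3 genes. The Nlrp4c window ended before the place where the 16 bases stand in Nlrp4a and Nlrp4b. That of Nlrp4f began within the place of the 14 bases. Whether Nlrp4c lacks the 16 bases or Nlrp4f the 14 bases could therefore not be seen.
Nlrp4a, chr7:26435539-26435663, plus strand: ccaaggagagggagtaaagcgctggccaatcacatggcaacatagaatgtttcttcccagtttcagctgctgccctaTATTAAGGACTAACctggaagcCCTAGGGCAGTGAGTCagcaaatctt
Nlrp4b, chr7:10687718-10687842, plus strand: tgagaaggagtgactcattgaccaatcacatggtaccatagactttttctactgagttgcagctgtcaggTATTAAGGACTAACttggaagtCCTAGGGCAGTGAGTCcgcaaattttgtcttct
Nlrp4c, chr7:6045086-6045210, plus strand: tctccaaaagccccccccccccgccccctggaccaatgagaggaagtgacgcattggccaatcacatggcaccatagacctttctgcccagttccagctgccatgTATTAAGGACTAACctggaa
Nlrp4f, chr13:65205907-65205966, minus strand: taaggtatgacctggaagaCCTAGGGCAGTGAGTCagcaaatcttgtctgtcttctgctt
The RefSeq start of Nlrp4f lay 261 bases downstream of the gene start in the count table, so that its shared stretch stood at the upstream end of the window. The start given for Nlrp9b lay 16558 bases downstream of the gene start in the count table.

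CCAAT, a motif chosen after the windows had been viewed, occurred in either orientation in 7 of the 10 windows against 37.4% of all windows. The 2 Nlrp4b windows overlap and hold the same 2 sites, which the count of 7 takes as separate. It also takes as separate the 3 like-spaced sites of Nlrp9a and Nlrp9c, whose windows were 95.2% identical where aligned. The windows of Nlrp4a (second start), Nlrp4b and Nlrp4c were alike too, so the 7 windows are not independent. The windows of Nlrp4c, Nlrp9a and Nlrp9c held 3 each, as did 3.37% of all windows or more. CANNTG, the E-box letters that the oocyte regulator FIGLA and many other factors can bind, occurred in 10 of the 10 windows and in 72.3% of all windows. TAATTG and TAATTA, letters of the sites of the homeodomain factor NOBOX, were each searched on both strands and share their first 5 letters. TAATTG was found in the windows of Nlrp9a and Nlrp9b and in 2628 of all 32851 windows, and TAATTA in that of Nlrp9a and in 1738 of all. These are matches of letters only.

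Total counts per embryo ran from 1937251 to 17246791, and 11364 to 21638 genes had a count. Each library is a whole embryo, so that a level is a share of its RNA, and a lower share cannot be told apart from more RNA of other genes. The 9 transcripts together took 0.24% of the counts of an embryo in the median, with a range from 0.0787% to 0.801%. Nlrp9c was the most counted, at 607 in the median embryo as counts scaled to a total of 1000000 (CPM), and Nlrp4c the least, at 18.2 CPM. Of the 9 genes, 7 had a count in every embryo, Nlrp9b had none in 1 embryo and Nlrp4c had none in 3. The median total was 5706066 counts per embryo, and the median count was 3415 for Nlrp9c and 383 for Nlrp4b.

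Among the Nlrp4 genes, Nlrp4f was the highest. Its lowest, median and highest HFD embryo had 89.1, 537 and 1754 CPM, and the LFD embryos 113.6, 535 and 1735 CPM. Nlrp4a had 64.4, 213 and 854 CPM in HFD and 106.7, 224.3 and 809 CPM in LFD embryos. Nlrp4e had 32.7, 207 and 596 CPM in HFD and 65.97, 237 and 473 CPM in LFD embryos. For these 3 genes the ranges of the diets overlapped almost whole, and at most 3 HFD embryos stood above the highest LFD embryo. Nlrp4b had 3.51, 68.2 and 405 CPM in HFD and 6.75, 63.6 and 363 CPM in LFD embryos. Nlrp4c had 0, 18.1 and 88.5 CPM in HFD and 0, 18.4 and 118.4 CPM in LFD embryos. Within each diet both low genes reached from far below the median, with no count at all for Nlrp4c, to several times the median.

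Nlrp9c, the gene of the Nlrp9 group with the longest summed exons in the table, also had the smallest fold between its 95th and 5th percentile of all 9 genes. Its lowest, median and highest HFD embryo had 268, 621 and 1397 CPM, and the LFD embryos 345, 592 and 1071 CPM. Nlrp9a had 56.6, 213 and 687 CPM in HFD and 70.3, 232 and 513 CPM in LFD embryos. Nlrp9b had 0, 63.6 and 353 CPM in HFD and 14.5, 76.2 and 256 CPM in LFD embryos. Again the groups overlapped, with 5 HFD embryos above the highest LFD embryo for Nlrp9c and 1 each for Nlrp9a and Nlrp9b. Nlrp14, the member with a known role in keeping UHRF1 and calcium balance in the early embryo, had 76.3, 329 and 2104 CPM in HFD and 189, 379 and 2537 CPM in LFD embryos. Here 2 LFD embryos stood above the highest HFD embryo.

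**Figure D1:**
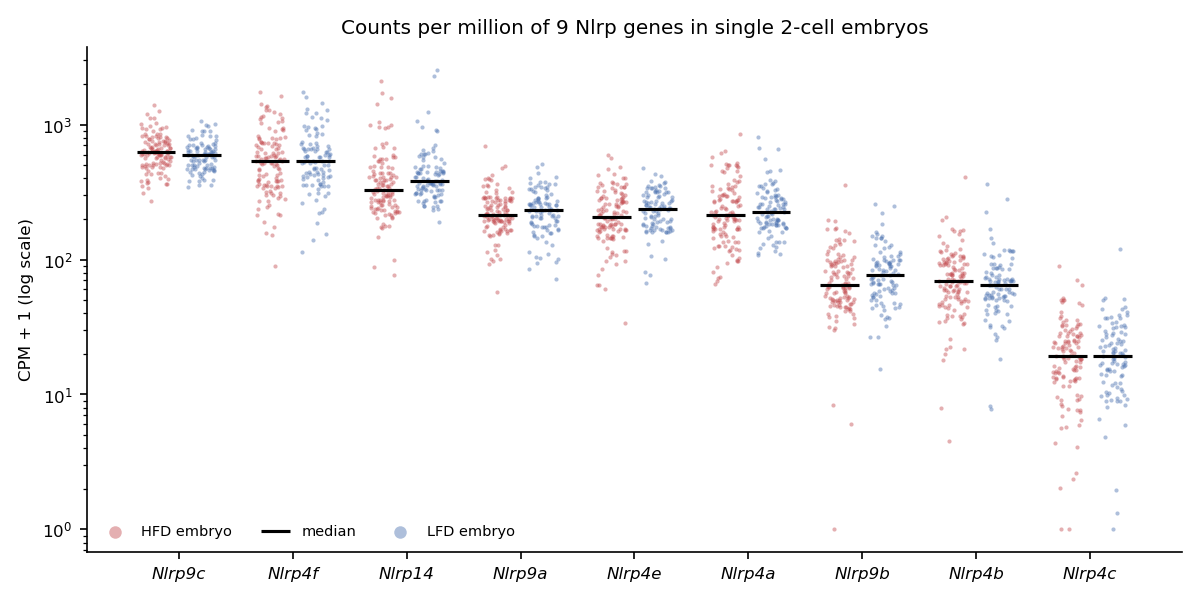
CPM (counts scaled to a total of 1000000, with 1 added, log scale) of each gene in each embryo, HFD in red and LFD in blue, with black bars at the group medians and genes ordered by median. The diets overlap for every gene, and the medians fall from 607 CPM for Nlrp9c to 18.2 CPM for Nlrp4c.

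Levels of different genes were compared per kilobase of the exon length given in the count table, within each embryo. On this scale the order of mean log2 level was Nlrp4f, Nlrp14, Nlrp9c, Nlrp9a, Nlrp4e, Nlrp4a, Nlrp9b, Nlrp4b and Nlrp4c. Mean levels per kilobase were 155 CPM ± 82.7 (SD over all embryos) for Nlrp4f, 124.4 ± 90.2 for Nlrp14 and 105.9 ± 30.8 for Nlrp9c. They were 67.6 ± 25.1 for Nlrp9a, 68.5 ± 27.3 for Nlrp4e and 51.7 ± 26.8 for Nlrp4a, and 21.5 ± 11.96, 16.7 ± 10.8 and 5.24 ± 3.65 for Nlrp9b, Nlrp4b and Nlrp4c. Of the 8 neighbouring steps in this order, 6 passed a 2-sided permutation test on the within-embryo difference (100000 sign flips, adjusted p = 1.3e-05 for each, which rests on 1.0e-05, the smallest p they can give). The step from Nlrp14 to Nlrp9c was 0.08 on the log2 scale and did not pass (adjusted p = 0.0978, permutation test, Nlrp14 higher in 130 embryos). The step from Nlrp9a to Nlrp4e was 0.01 and did not pass either (adjusted p = 0.871, permutation test). The largest steps were those from Nlrp4b down to Nlrp4c, 1.78 on the log2 scale, and from Nlrp4a down to Nlrp9b, 1.32 and seen in all embryos but 1. In LFD embryos alone Nlrp14 was above Nlrp9c by 0.25 (adjusted p = 1.3e-05, permutation test), whereas in HFD embryos alone it was below by 0.07 (adjusted p = 0.299, permutation test). Whether this step differed between the diets was not tested.

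Parts of some transcripts are shared between genes, and reads that fit several places were left out of the counts. Of the 50-base stretches of the Nlrp4e transcripts, 36.7% occur in transcripts of other genes, mainly Gm16443 (30.8%), so the level of Nlrp4e is uncertain. The share was 10.7% for Nlrp4c, from 2.61% to 7.79% for Nlrp4a, Nlrp4f, Nlrp9a, Nlrp9b and Nlrp9c, and 0% for Nlrp4b and Nlrp14. Gm16443 itself had a count in 1 embryo, while Nlrp4g, the gene that shares most with Nlrp4f, had a median of 72.5 CPM.

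Most of these transcripts varied more between embryos than other transcripts of like level. The SD of log2(CPM + 1) over all embryos was 0.76 for Nlrp4f and 0.73 for Nlrp14, against medians of 0.39 and 0.42 among the genes whose mean lay within 0.5 of theirs. That placed them above 98.1% of 208 and 96.02% of 327 such genes. Nlrp4a, Nlrp4b, Nlrp4c, Nlrp4e and Nlrp9b lay above 84.3% to 90.2% of theirs and Nlrp9a above 72.4%. Nlrp9c, with an SD of 0.41, lay near the middle, above 58.4%. The fold between the 95th and the 5th percentile of embryos ran from 2.57 for Nlrp9c to 10.1 for Nlrp4c.

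To ask whether the father's diet went with the level of these transcripts, HFD and LFD embryos were compared with edgeR over all 14820 genes that passed the filter on low counts, all 9 of these genes among them. None of the 9 genes passed a false discovery rate (FDR) of 0.05 in edgeR, beside 2.15% of all genes tested (318, of which 186 were higher in HFD). With DESeq2-type size factors in edgeR, 164 called genes were higher and 172 lower in HFD, and with total counts alone 276 of the 397 called were lower. At an unadjusted p under 0.05 in edgeR stood Nlrp9c alone of the 9, beside 13.1% of all genes. DESeq2 and limma-voom also called none of the 9, beside 463 and 330 of all 14820 genes. Before adjustment Nlrp9c alone of the 9 was under 0.05 in DESeq2 (p = 0.0173, beside 2182 of all genes). In limma-voom it was Nlrp14 alone (p = 0.0462, beside 14.2% of all genes). The log2 fold change of Nlrp9c, HFD over LFD, was 0.15 with a standard error (SE) of 0.06 (edgeR p = 0.0127, FDR = 0.197), and 74 HFD embryos stood above the LFD median. Nlrp4b had 0.15 (SE 0.11), Nlrp14 -0.11 (SE 0.11) and Nlrp9b -0.09 (SE 0.11). The remaining 5 lay between -0.03 for Nlrp4e and 0.05 for Nlrp4a, with SE from 0.07 to 0.14. The median over the 9 genes was 0.03, beside 0.01 over all genes tested.

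For 4 of them the direction was not settled even by the summary used. Nlrp4a, Nlrp4c, Nlrp4f and Nlrp9a had an edgeR fold change above 0, and a mean of log2(CPM + 1) that was lower in HFD than in LFD embryos, for example 7.77 ± 0.76 (SD) in HFD against 7.85 ± 0.57 in LFD embryos for Nlrp4a. The SD over HFD embryos was the larger for 8 of the 9 genes, Nlrp9a excepted, and for 6 of them when HFD embryos numbered 31 to 70 were left out, a description that was not tested.

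**Figure D2:**
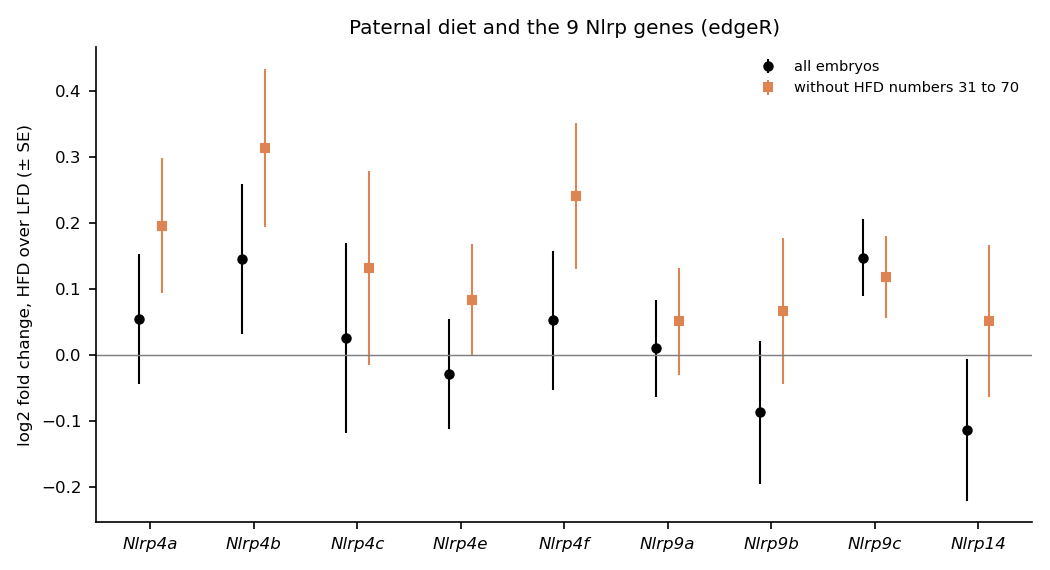
Log2 fold change of HFD over LFD embryos with its SE for each gene from edgeR, over all embryos (black circles) and without HFD embryos numbered 31 to 70 (orange squares). Over all embryos the values lie between -0.11 and 0.15, and without those embryos all 9 lie above 0.

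The sample titles carry an embryo number, and results of these data known beforehand had singled out the 38 HFD embryos numbered 31 to 70, so values are given with and without them. Without them 0 of the 9 genes passed in edgeR (FDR of 0.252 and above), beside 1.18% of 14823 genes tested. All 9 fold changes were then above 0, with a median of 0.12 beside 0.02 over all genes. Nlrp4b had 0.31 (SE 0.12, p = 0.00957) and Nlrp4f 0.24 (SE 0.11, p = 0.0314), both before adjustment in edgeR, where 9.92% of all genes had a p under 0.05. Nlrp14 moved from -0.11 to 0.05 (SE 0.12), Nlrp9b from -0.09 to 0.07 and Nlrp4e from -0.03 to 0.08.

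Across ranges of 10 consecutive numbers, which need not be batches, the diets varied to a different degree from gene to gene. Nlrp4f had range means of log2(CPM + 1) from 8.30 (HFD numbers 41 to 50) to 9.87 (11 to 20), while its LFD range means ran from 8.73 to 9.34. Ranges accounted for 34.3% of the variance of Nlrp4f among HFD embryos and for 4.98% among LFD embryos. Nlrp9a showed the reverse, with 6.28% among HFD and 26.7% among LFD embryos. The other 7 genes had shares of 10.5% to 21.1% among HFD embryos, and of 8.52% to 19.4% among LFD embryos. Such shares lie above 0 even when embryos are put into ranges at random. No correction for that was made, so the lower shares need not show any link with number, and the contrasts between diets were not tested. In HFD numbers 31 to 70 Nlrp4f was at 8.59 ± 0.71 (SD, n = 38), against 9.22 ± 0.74 in the other HFD embryos (n = 84) and 9.05 ± 0.74 in LFD embryos. Nlrp14 was at 8.12 ± 0.72, 8.63 ± 0.78 and 8.70 ± 0.62 in the same 3 sets. Of the 9 genes, 8 had a lower mean in those HFD embryos than in the others, and the median difference was -0.48, beside -0.08 over all 14820 genes, of which 60.4% were lower. Nlrp9c was the exception, with a difference of 0.14. The median difference was -0.25 over the listed oocyte transcripts and -0.37 over other NLR genes. These are descriptions with no test, since the set of embryos came from earlier results. The number of genes detected moved with them, with a median of 17613 in HFD numbers 31 to 70, 19309.5 in the other HFD embryos and 18723 in LFD embryos, and 5 of the 6 HFD embryos with the fewest genes lay in 31 to 70. Without the embryos with the fewest genes, a choice made after seeing the data, the median difference of the 9 genes was -0.40 beside -0.02 over all genes. The difference grew for Nlrp4b (-0.58 to -0.65), Nlrp4c (-0.48 to -0.55) and slightly for Nlrp9a (-0.072 to -0.074). For the others it moved toward 0, with Nlrp4f at -0.48, Nlrp9b at -0.33 and Nlrp9c at 0.07. The part of gene detection in the remaining difference was not tested.

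Within the 11 ranges that hold both diets, the sign of the difference changed from range to range for every gene. Embryos of equal number were not alike between the diets (94 same-numbered pairs, median r of 0.01), so single numbers gave no pairs. Whether a range of numbers shared a fertilization date across the diets was not tested. Nlrp9c was higher in HFD embryos in 8 ranges, Nlrp4a and Nlrp4b in 5, Nlrp4f, Nlrp9a and Nlrp9b in 4, Nlrp4c in 3, and Nlrp4e and Nlrp14 in 2. The difference of Nlrp14 ran from -0.74 (numbers 41 to 50) to 0.33 (21 to 30), and that of Nlrp4f from -0.75 to 0.71 in the same ranges. All 9 genes had their largest difference in favour of HFD in the range 21 to 30. For all of them but Nlrp4f and Nlrp9b the lowest LFD range mean also lay there, as for Nlrp9a (7.11) and Nlrp14 (8.30). The 9 genes were correlated with each other, and no share over all genes was computed.

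**Figure D3:**
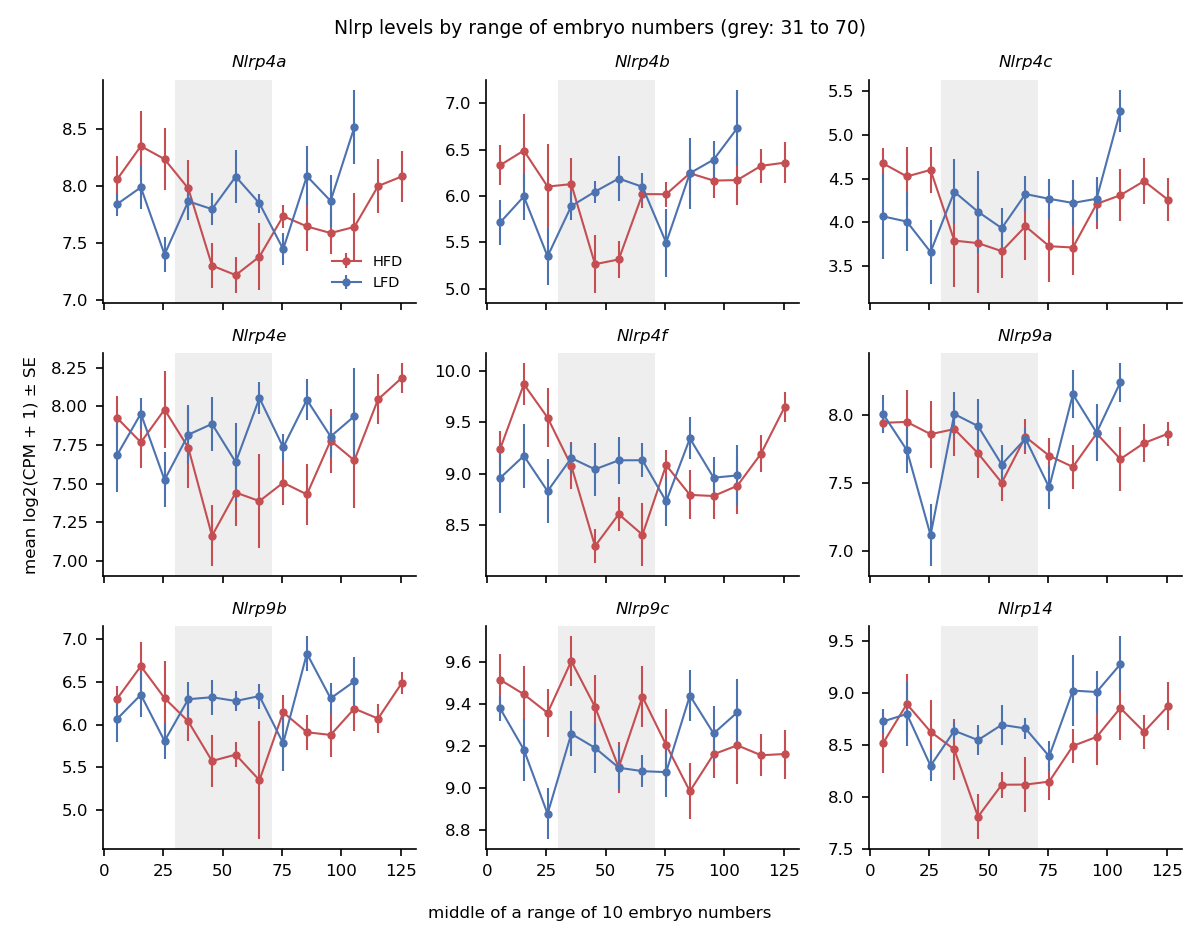
Mean of log2(CPM + 1) with its SE in each range of 10 embryo numbers for each gene, HFD in red and LFD in blue, with numbers 31 to 70 shaded. For 6 of the 9 genes 3 of the 4 lowest HFD means lie in the shaded part, as for Nlrp4f (9.87 in numbers 11 to 20, 8.30 in 41 to 50), and for Nlrp9c 1 does.

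The 9 transcripts rose and fell together over embryos. Of the 36 pairs, all had a positive Pearson correlation of log2(CPM + 1) over all embryos, with a median r of 0.51 and a range from 0.26 to 0.76, beside a median of 0.03 over all pairs of genes tested. The points share the library and its depth, and are given as a description. The closest pair was Nlrp4a with Nlrp14 at 0.76, although those genes lie far apart on chromosome 7, followed by Nlrp4f with Nlrp9b at 0.72, which lie on different chromosomes. Nlrp9a and Nlrp9c, whose start regions were shown above to be nearly identical, had 0.64, the highest value of Nlrp9c with any of the 9. Nlrp9a was closer to Nlrp4a (0.65), and 18 genes outside the 9 were closer to Nlrp9c. Whether likeness of start regions went with correlation was not tested. Nlrp9c had 0.26 to 0.27 with Nlrp4f, Nlrp4e and Nlrp9b, the lowest of all pairs. Nlrp4c, the least counted, had 0.28 to 0.46 with the others.

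Every pair was positive in each diet, with a median r of 0.54 in HFD and 0.46 in LFD embryos. Single pairs stood apart by diet, such as Nlrp4e with Nlrp14 (0.69 in HFD, 0.38 in LFD) and Nlrp9b with Nlrp9c (0.23 and 0.42), and these differences were not tested. After the mean of each number range within a diet was taken out, the median was 0.51. Correlation with the log2 of total counts was weak, from -0.03 for Nlrp9c to 0.23 for Nlrp9b. With the number of genes detected it ran from -0.23 for Nlrp9c to 0.34 for Nlrp4e.

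**Figure D4:**
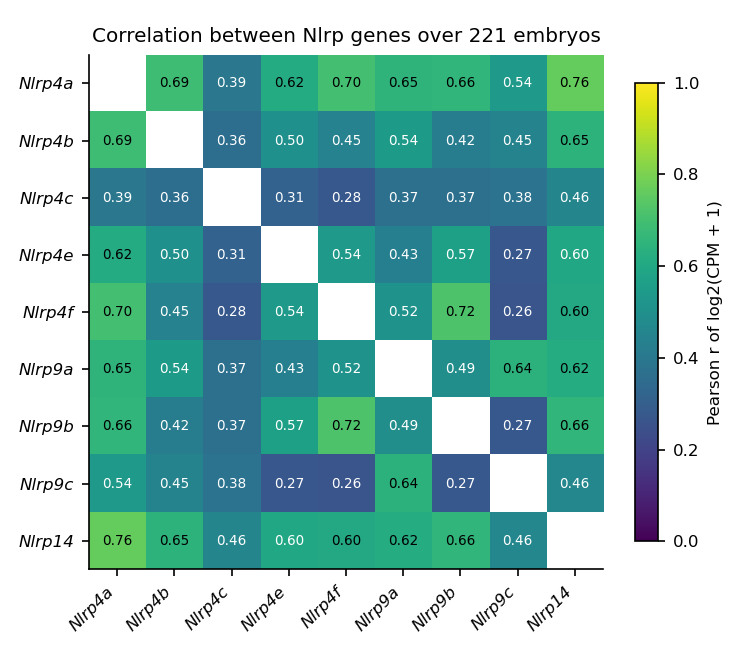
Pearson correlation of log2(CPM + 1) between each pair of the 9 genes over all embryos, coloured from 0 to 1. All 36 values are positive, from 0.26 for Nlrp4f with Nlrp9c to 0.76 for Nlrp4a with Nlrp14.

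The genes most like the whole set, by mean r with the 9 genes over all embryos, were Bmp15 (0.63), an oocyte growth factor, Rab7 (0.63), a small GTPase of late endosomes, Tbc1d15 (0.62), a regulator of that GTPase, Mapre2 (0.62), a microtubule end-binding protein, and Gyg (0.61), the primer of glycogen synthesis. None of these 5 was called for diet in edgeR, with FDR from 0.622 to 0.988. For single genes the most like transcript was Tbc1d15 for Nlrp4a (0.84), Kpna7, an importin of oocytes and early embryos, for Nlrp4f (0.87), and Gyg for both Nlrp14 (0.80) and Nlrp4c (0.50). It was Ncoa4, a ferritin receptor of autophagy, for Nlrp4b (0.74), Eef2k, a kinase of a translation elongation factor, for Nlrp4e (0.69), Dync1i2, a dynein chain, for Nlrp9a (0.73) and Ywhae, a 14-3-3 protein, for Nlrp9c (0.74). For Nlrp9b it was the unnamed gene 4933427D06Rik (0.76). In each case at least 1 gene outside the 9 was closer than the closest of the 9, with 23 such genes for Nlrp4f and 1 each for Nlrp4b and Nlrp14.

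Embryos differed in the level of the transcripts of the 2-cell wave, summed over 27 listed genes (Zscan4, Tdpoz, Usp17l and others), from 9.98 to 12.66 on the log2 CPM scale, with 11.67 ± 0.38 (SD) in HFD and 11.63 ± 0.34 in LFD embryos. To ask how the 9 genes went with this level, the slope of each gene on it was tested with edgeR, with diet as a covariate and the listed genes left out. Of the 9 genes, 7 had a positive slope past FDR 0.05, beside 8.93% of 14795 genes tested with a positive call. The median slope of the 9 was 0.48 log2 units for each log2 unit of the 2-cell level, beside -0.02 over all genes.

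Nlrp9c had a slope of 0.48 (SE 0.07, FDR = 1.3e-08 in edgeR), Nlrp9a 0.52 (SE 0.09, FDR = 2.5e-06) and Nlrp4a 0.56 (SE 0.12, FDR = 0.000164). Nlrp9b (0.49), Nlrp4f (0.47), Nlrp4e (0.39) and Nlrp4c (0.55) followed, with FDR from 0.00175 to 0.0242. Nlrp4b at 0.34 (SE 0.14, FDR = 0.0654) and Nlrp14 at 0.14 (SE 0.13, FDR = 0.467) did not pass. In plain levels, the 56 embryos with the lowest 2-cell level had a median of 170 CPM of Nlrp4a, and the 55 with the highest 288 CPM. For Nlrp9c these medians were 501 and 681 CPM, and for Nlrp14 they were 320 and 393 CPM. All 9 medians were higher in the latter set, by 1.23 times for Nlrp14 to 1.70 times for Nlrp4a. The scatter was wide, and the correlation with the 2-cell level ran from 0.11 for Nlrp14 to 0.42 for Nlrp9c.

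**Figure D5:**
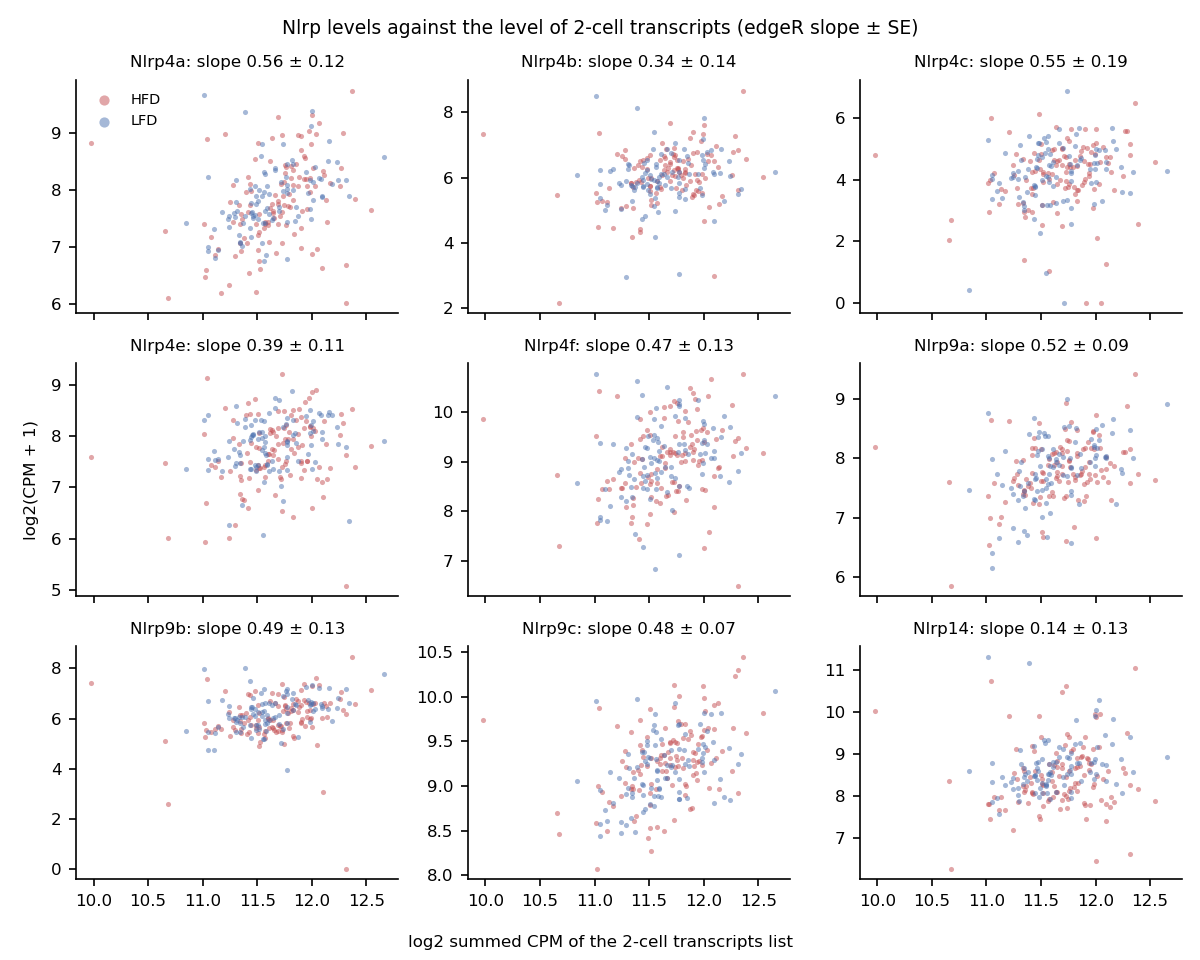
Log2(CPM + 1) of each gene against the log2 summed CPM of the listed 2-cell transcripts, 1 point for each embryo, HFD in red and LFD in blue, with the edgeR slope and its SE above each panel. Levels rise with the 2-cell level for most genes, most evenly for Nlrp9c (slope 0.48), and little for Nlrp14 (0.14).

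The slopes of the diets did not differ past the threshold for any of the 9 genes, and 0% of all genes tested were called for that difference in edgeR, with 563 at an unadjusted p under 0.05. The differences, HFD minus LFD, ran from -0.28 (SE 0.19) for Nlrp9a to 0.39 (SE 0.29) for Nlrp4b. The slopes depended on which 2-cell transcripts were summed. With the Zscan4 genes alone all 9 passed upward, beside 16.7% of all genes tested, Nlrp14 included (0.19, SE 0.07, FDR = 0.0233 in edgeR). With the others alone 3 passed, beside 3.01% of all genes, namely Nlrp4e, Nlrp9a and Nlrp9c, and Nlrp14 stood at -0.15 (SE 0.15). Without the 2 embryos farthest from the median 2-cell level, an alternative chosen after seeing the data, 8 of the 9 passed, beside 11.5% of 14804 genes with a positive call. All 9 slopes were then steeper, with Nlrp4a at 0.83 (SE 0.14), Nlrp4b past the threshold at 0.59 (SE 0.16, FDR = 0.00318 in edgeR) and Nlrp14 at 0.35 (SE 0.15, FDR = 0.0768). The 2-cell level itself had a correlation of -0.21 with the number of genes detected and of -0.08 with the log2 of total counts.

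Other genes of the same pathways were counted from lists chosen by known function. Of 21 other NLR genes, 12 passed the filter on low counts and 0 were called for diet in edgeR. Nlrp5, the anchor of the subcortical maternal complex, had 31.96 CPM per kilobase ± 12.7 (SD over all embryos), and Nlrp4g 36.4 ± 16.3, both above Nlrp9b, Nlrp4b and Nlrp4c on that scale. Nlrp4g alone of the 12 passed for the 2-cell slope (0.45, SE 0.11, FDR = 0.00116), and its mean r with the 9 genes was 0.55. Nlrp3, the inflammasome sensor, had a median of 1.34 CPM and a count in 191 embryos.

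Transcripts of caspase-1 and interleukin-1 beta, the effector and product of inflammasomes, were nearly absent from these libraries. Of 14 inflammasome and innate partners, 6 passed the filter, and Casp1 had a count in 33 embryos and Il1b in 2. Pycard, the adaptor that joins sensor and caspase, had a median of 0.729 CPM. Becn1, the autophagy protein Beclin-1, was present at 108.4 CPM. Nek7 (0.40, SE 0.10) passed upward and the RNA helicase Dhx9 (-0.41, SE 0.16, FDR = 0.0486) downward for the 2-cell slope, and 0 of the 6 were called for diet in edgeR.

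Of the 4 listed partners of Nlrp14, Slc8b1, the mitochondrial calcium exchanger, did not pass the filter and had a count in 87 embryos. Uhrf1, a regulator of DNA methylation, had 195 CPM, a mean r of 0.45 with the 9 genes and a slope of 0.38 (SE 0.12, FDR = 0.0121 in edgeR). Kdm2a, a histone demethylase, fell with the 2-cell level (-0.32, SE 0.10, FDR = 0.0168), and Dnmt1 did not pass. None of the 3 was called for diet.

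All 7 genes of the subcortical maternal complex list passed the filter, and Tle6 was the only one called for diet (-0.23, SE 0.07, FDR = 0.0444 in edgeR), a call that was lost without HFD embryos 31 to 70. Zbed3 passed for the 2-cell slope (0.39, SE 0.10), with a median of 29726 CPM that stood far above the other 6. The mean r with the 9 genes had a median of 0.33 over this list, beside 0.02 over all genes tested. Of 18 oocyte transcripts in the table, all passed the filter and 0 were called for diet in edgeR. Without HFD embryos 31 to 70 the oocyte gene Oog1 was called (0.27, SE 0.05, FDR = 0.000877 in edgeR), beside 0.17 (FDR = 0.0629) over all embryos. Of the 18, 4 passed for the 2-cell slope, all upward (Oas1d, Bcl2l10, Dppa3 and Btg4, the last an adaptor of maternal mRNA decay). The median slope of the 18 was 0.11, less than the 0.48 of the 9 genes, a difference that was not tested. The mean r with the 9 genes had a median of 0.305 over the 18 and was above 0 for 13 of them. Omt2a and Omt2b, the most counted of the 18, went the other way, with a mean r of -0.45 and -0.41.

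Of 7 oocyte transcription regulators, 6 passed the filter and 0 were called for diet in edgeR. For the 2-cell slope Nobox (0.55, SE 0.11), Sohlh2 (0.81, SE 0.25) and Tbpl2 (0.50, SE 0.14) passed upward and Sohlh1 (-2.57, SE 0.47, median 0.774 CPM) downward. Figla, at a median of 0.394 CPM, did not pass the filter. The mean r with the 9 genes was 0.43 for both Nobox and Lhx8.

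Markers of other cells were low in most libraries. Cumulus and granulosa markers summed to a median of 20.9 CPM in HFD and 20.5 in LFD embryos, and 3 of 15 passed the filter, with Foxl2 and Inha at a median of 0. Sperm markers summed to 3.82 and 3.64 CPM in the median, with 1 of 8 past the filter (Clu). Macrophage markers summed to 76.5 CPM in HFD and 77.3 CPM in LFD embryos in the median, with highest values of 6205 and 156 CPM, and 7 of 14 passed the filter. Of those 7, 5 were called higher in HFD, Apoe, Ctsd, Cd68, Mmp12 and Spp1 (the last not without HFD embryos 31 to 70), while Ptprc and Adgre1 were at a median of 0. With the summed macrophage level as a covariate 0 of the 9 Nlrp genes were called for diet in edgeR, and Nlrp9c came to 0.18 (SE 0.06, FDR = 0.0637). The study sexed single embryos by their Y-linked genes, and the labels give no sex. Y-linked transcripts summed to 44.2 CPM in HFD and 11.4 CPM in LFD embryos in the median. Single embryos ran from 0 to 149 CPM in HFD and from 0 to 141 CPM in LFD, and the share of males was not computed. With this sum as a covariate 0 of the 9 were called and Nlrp9c had 0.17 (SE 0.06, FDR = 0.123 in edgeR). With both covariates taken in turn, the part of these markers in any difference between the diets was not tested further.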

How the data were processed

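Single-embryo Smart-seq2 libraries were compared by the diet in the labels. Per the study's methods, the authors trimmed reads with Trim Galore, aligned them with STAR to GRCm38 with the mitochondrial sequence replaced by that of the ST line, and counted with featureCounts. Per the file headers, the deposited values are raw counts per gene, counted on the reverse strand with both ends aligned, and with no option set to count pairs as 1 or to count reads that fit several places. Of the counts above 0, 65.8% were even. No molecular identifiers were used, so PCR copies count as reads. The submitters' processing notes name Trim Galore 0.6.6, STAR 2.7.10a and MultiQC 1.11.

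From the deposited counts, CPM was computed on total counts, and log2(CPM + 1) served for descriptions. Diet and slopes were tested with edgeR 4.0.16 (quasi-likelihood, TMM scaling, filterByExpr) in R 4.3.3, with Benjamini-Hochberg adjustment over all genes tested and a threshold of 0.05. DESeq2 1.42.0 and limma 3.58.1 were alternatives. Levels of neighbouring genes were compared as log2(CPM per kilobase + 0.1) by sign flips. Counts of all 14820 tested genes were simulated, with changes (66 or 67 genes of each size) put only into well-counted genes. Of these, the diet test recovered 31.3% of genes changed by 0.25 on the log2 scale, 80.6% at 0.5 and 100% at 1. For the slope these shares were 11.9%, 55.2% and 97.0%.

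Per the study's methods a few males of each diet gave the sperm, so many embryos share a father, and the labels tie no embryo to its father. The p-values therefore measure the spread between embryos and not between fathers. Named are all 9 genes, the 5 genes with the highest mean correlation with them, the gene most correlated with each, and, of every other list, the genes called and at most 3 with the highest mean level. Further list genes were named after their values were seen. CCAAT was searched after the sequences had been seen. The members and lists were chosen with earlier results of these data known.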

Additional observations from a re-analysis of the deposited data

How the results depend on the processing

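For the father's diet, the 318 genes called became 7030 with no filter on low counts, 558 without the 11 embryos with the fewest genes and 175 without HFD embryos 31 to 70. They were 549 with number ranges as fixed terms and 86 as random ones. The fit with fixed ranges kept only the embryos of ranges that hold both diets. Leaving out each number range of a diet in turn gave 204 (without LFD 11 to 20) to 431 (without LFD 71 to 80) and 0 of the 9 genes throughout. Embryo numbers did not pair the samples. Of 94 same-numbered pairs 20 correlated above 0.1, with a median r of 0.01, and 1 embryo correlated best with its own number. With the number as a replicate block 507 genes and 1 of the 9 were called, Nlrp14 (-0.35, SE 0.10, FDR = 0.028 in edgeR). In that fit Nlrp4a turned to -0.13, Nlrp4c to -0.23, Nlrp4f to -0.11 and Nlrp9a to -0.024. It kept only the embryos whose number occurs in both diets. For this block and for fixed ranges, the part of the embryos left out in the changed calls and signs was not tested. Directions also turned for Nlrp4a with total counts (-0.00023), voom (-0.048) and fixed (-0.045) or random ranges (-0.051), for Nlrp4c (-0.021, -0.040, -0.028 and -0.052 in that order), for Nlrp4f with fixed ranges (-0.093), and for Nlrp9a with RLE factors and DESeq2 (both -0.00079), total counts (-0.030) and the 2-cell level (-0.0017), a covariate chosen after seeing the data. Without HFD 31 to 70 Nlrp4e (0.083), Nlrp9b (0.067) and Nlrp14 (0.051) turned, as did Nlrp4e with the macrophage level (0.00033). Leaving out ranges gave -0.023 to 0.10 for Nlrp4a, -0.028 to 0.078 for Nlrp4c, -0.077 to 0.0039 for Nlrp4e, -0.043 to 0.10 for Nlrp4f and -0.040 to 0.044 for Nlrp9a, while Nlrp4b (0.06 to 0.20), Nlrp9b (-0.17 to -0.02), Nlrp9c (0.12 to 0.17) and Nlrp14 (-0.17 to -0.04) kept their sign.

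For the 2-cell slope, 3112 genes and 7 of the 9 were called. HFD embryos alone gave 1374 and 4, LFD embryos alone 779 and 4, Zscan4 alone 5249 and 9, the others without Zscan4 1060 and 3 (Nlrp14 -0.15), and no filter 7280 and 7. Number ranges as a covariate, chosen after seeing the data, gave 1912 and 7. RLE factors gave 1086 upward and 2183 downward calls, beside 1321 and 1791. In the order of levels Nlrp14 fell below Nlrp9c when not divided by length (-0.67) and in HFD embryos alone (-0.068), Nlrp9a below Nlrp4e in LFD embryos alone (-0.059), and Nlrp4e below Nlrp4a when not divided by length (-0.062). Fewer embryos entered the fits by diet, and the causes of the other changes were not tested. In the simulation, with independent embryos and changes only in well-counted genes, a change of 0.25 on the log2 scale was mostly missed.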
